A study of Mus musculus with 7 samples.

Results

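The 36 genes described here are genes of B lymphocytes and of the lymphoid follicle, taken by name from the 37310 genes counted in the mouse mammary gland. They fall into 8 genes of the B cell antigen receptor and its signalling chain, 13 genes of surface proteins, 4 receptors for cytokines and chemokines, 9 transcription factors and 2 other genes. The libraries were made from total RNA of mammary gland tissue at lactation day 1, from C57BL/6 mice, with 3 libraries labelled WT and 4 labelled *Tardbp* KO. KO mice were *Tardbp* flox/flox and carried WAP-Cre, by which exons 2 and 3 of this gene are cut out (*Tardbp* encodes the RNA-binding protein TDP-43), while WT mice carried WAP-Cre with an intact *Tardbp*. WAP-Cre is driven by the promoter of the whey acidic protein gene, which is active in luminal epithelial cells from mid-pregnancy to lactation. The sources used here do not say whether lymph nodes were removed from the tissue or how old the mice were.

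B cells carry a membrane immunoglobulin that signals through the paired chains CD79A and CD79B, and their identity is held by transcription factors such as PAX5 and EBF1. They leave the bone marrow as immature cells, mature in the spleen, and circulate through the follicles of lymph nodes and spleen, to which the chemokine receptor CXCR5 directs them. After contact with antigen they can form germinal centres, where immunoglobulin genes are mutated and switched, or become plasma cells, which secrete antibody and lose most surface markers of B cells. In the lactating gland, plasma cells supply the antibodies of milk, and the mammary fat pad of the mouse also holds lymph nodes.

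Between 36007737 and 42811337 counts were assigned to genes in each library. *Tardbp* itself lay between 159.2 and 222.8 CPM (counts relative to the TMM-scaled library size) in WT libraries and between 154.2 and 214.4 CPM in KO libraries. Counts over the whole gene do not separate the deleted exons or the luminal cells, so they do not check the labels. Each library has its own identifier in the labels, the study describes the libraries of each genotype as mice, and each library was taken as 1 mouse. The lane of the flow cell was 3, 4 and 2 for the WT libraries in replicate order, and 1, 5, 4 and 4 for the KO libraries. Genotype and lane can be told apart only within lane 4, which holds both genotypes. Luminal epithelium markers (*Krt8*, *Krt18*, *Krt19*, *Epcam*, *Elf5*, *Cdh1*) summed to between 2623 and 3838 CPM over the 7 libraries.

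B cell and follicle genes were higher in the KO libraries as a set, and by very unequal amounts in the 4 KO libraries. Summed over the 36 genes, the level was 133.7, 161.0 and 140.5 CPM in WT replicates 1, 2 and 3. It was 785.2, 214.9, 1004 and 308.1 CPM in KO replicates 1, 2, 3 and 4, all above the WT libraries, with KO replicate 3 far above KO replicate 2. Of the 35 genes with enough counts for a test, all 35 had a log2 fold change (KO minus WT) above 0, with a median of 2.96 against a median of 0.05 over all 17175 genes tested. As the tissue was not separated into cells, more B cells and more B cell RNA per cell cannot be told apart.

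At the limits used (an adjusted p below 0.01 with a log2 fold change beyond 1 in either direction), edgeR's quasi-likelihood test called 0 of the 35 genes, as it called 0.0% of all genes tested. Adjusted p (Benjamini-Hochberg over all genes tested) lay between 0.0642 for *Bach2* and 0.354 for *Ebf1*. At an unadjusted p under 0.05, 31 of the 35 were higher in KO, against 10.7% of all genes tested, and the other 4 were *Blnk*, *Ly86*, *Ebf1* and *Pou2f2*. edgeR's exact test called 19 of the 35 as higher, against 1.04% of all genes tested, and DESeq2's Wald test called 23, against 1.68%. The filter asked for at least 5 counts in at least 4 libraries, and 2 of the 35, *Blk* and *Vpreb3*, had fewer in every WT library. They passed through the KO libraries alone and so had to differ, and these counts and medians include them. In 16 of the 35, every KO library was above every WT library, against 9.07% of all genes tested. Below, fold changes are the log2 values of the quasi-likelihood fit with their SE, and adjusted p is from that test unless another is named. Counts in smaller groups and lists, over all libraries, are to be read beside these same shares of all genes.

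The count of the exact test depended on single libraries. It was 1 without WT replicate 1, 12 without WT replicate 2 and 3 without WT replicate 3, where 0.147%, 2.17% and 0.131% of all genes tested were called as higher. It was 15, 26, 13 and 25 without KO replicate 1, 2, 3 or 4, where 0.732%, 2.11%, 0.362% and 2.32% of all genes tested were called. When KO replicates 1 and 3, the libraries with the highest levels, were both left out, the exact test called 4 genes (0.135% of all genes), and 19 of the 32 genes still tested had an unadjusted p under 0.05, against 5.41% of all genes tested there. The median log2 fold change of those 32 was 1.16, and 31 of them were above 0. Within lane 4, where WT replicate 2 can be set against KO replicates 3 and 4, the median log2 fold change was 3.12, a value with no test.

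**Figure D1:**
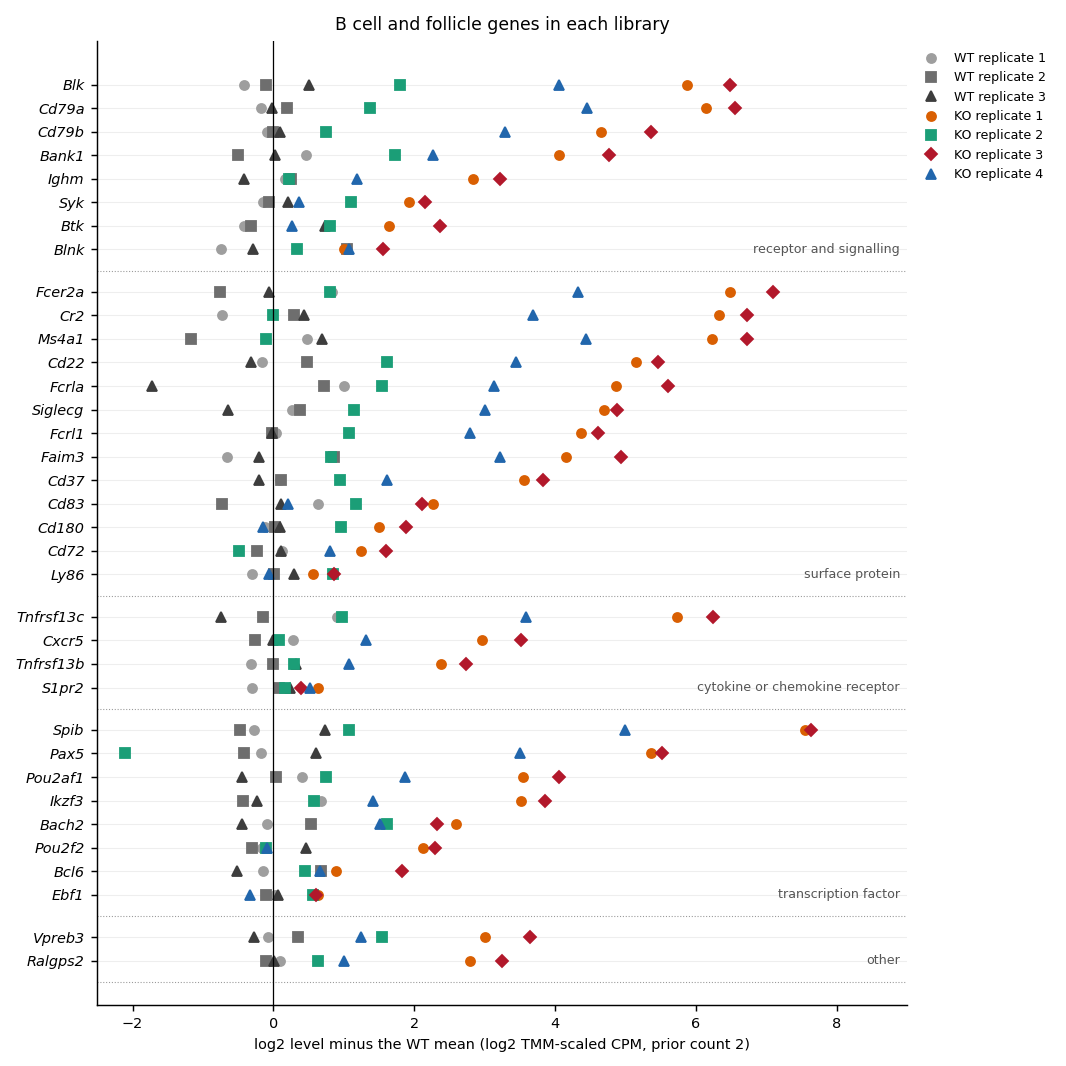
Level of each of the 35 tested genes in each of the 7 libraries, as log2 TMM-scaled CPM (prior count 2) minus the mean of the 3 WT libraries, on the horizontal axis, grouped by role. KO replicate 3 (diamonds) is the highest KO library for 31 genes and KO replicate 1 (orange circles) for 4, while KO replicate 2 (green squares) is above every WT library for 21 genes.

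The KO libraries kept nearly the same order from gene to gene. KO replicate 3 was above every WT library for all 35 tested genes, KO replicate 1 for 34, KO replicate 4 for 28 and KO replicate 2 for 21. The share of all genes above every WT library was not counted for single KO libraries, here or below. For all 4 KO libraries together, a stricter condition, the share was 9.07%, against 16 of the 35 members. The order KO replicate 3, then 1, then 4, then 2 held for 25 of the 35 genes. KO replicate 2 was the lowest KO library for 27 genes and KO replicate 4 for the other 8. The median difference from the WT mean, over the 35 genes, was 3.51, 0.80, 3.83 and 1.51 on the log2 scale in KO replicates 1, 2, 3 and 4, and −0.09, −0.01 and 0.01 in the WT replicates.

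Genes of the antigen receptor and its signalling chain had a median log2 fold change of 3.04, and 7 of the 8 had an unadjusted p under 0.05. *Cd79a*, which encodes the signalling chain Igα, was at 0.639, 0.834 and 0.713 CPM in WT replicates 1, 2 and 3, from 17, 28 and 24 counts. It was at 54.9, 1.96, 73.1 and 17.1 CPM in KO replicates 1, 2, 3 and 4. All KO libraries were above all WT libraries, and KO replicate 2, with 85 counts, lay close to the WT group. The mean was 0.729 ± 0.0984 CPM in WT (SD, n = 3) and 36.8 ± 32.9 CPM in KO (SD, n = 4), with a log2 fold change of 5.64 ± 1.14 (SE, adjusted p = 0.0739, and 5.1e-05 by the exact test).

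*Cd79b*, the gene of the partner chain Igβ, was at 0.902, 0.953 and 1.04 CPM in the WT libraries. In KO replicates 1 to 4 it was at 25.7, 1.66, 41.8 and 9.87 CPM. The groups did not overlap, and KO replicate 2 was again the nearest to WT, with a log2 fold change over all libraries of 4.35 ± 0.966 (adjusted p = 0.0793). *Ighm*, the constant region of the IgM heavy chain, had the highest level per kb of exon of all 36 genes, with means of 12.9 CPM per kb in WT and 63.3 CPM per kb in KO. Its levels were 19.4, 20.6 and 13.02 CPM in the WT libraries and 124, 20.2, 162 and 39.5 CPM in the KO libraries. Here KO replicate 2 lay inside the WT range and the other KO libraries above it, and the log2 fold change was 2.29 ± 0.659 (adjusted p = 0.11).

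The kinases and adaptors of the chain differed by unequal amounts. *Blk*, a Src family kinase of B cells, had 1, 2 and 4 counts in the WT libraries and 267, 16, 526 and 74 in the KO libraries, with a log2 fold change of 6.03. *Bank1*, a B cell scaffold protein with ankyrin repeats, had a log2 fold change of 3.78, and both genes were called by the exact test, *Blk* after passing the count filter through the KO libraries alone. *Syk*, the kinase that binds the phosphorylated CD79 chains and is also used by myeloid cells, had a log2 fold change of 1.54, with all 4 KO libraries above WT. *Btk* and *Blnk*, a kinase and an adaptor downstream of *Syk*, had log2 fold changes of 1.41 and 0.85, and their groups overlapped. Reads of *Syk* are listed in the annotation under the older symbol *Sykb*.

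For the 13 surface protein genes, the median log2 fold change was 3.93. Of these, 12 had an unadjusted p under 0.05, 9 were called by the exact test, and in 5 the groups did not overlap. The shares of all genes tested were 10.7%, 1.04% and 9.07%. The 3 with the highest level per kb over all libraries were *Ly86*, *Cd37* and *Faim3*. *Ly86*, which encodes the partner of the toll-like protein CD180 and is also a gene of macrophages and dendritic cells, was at 6.32, 7.87 and 9.63 CPM in WT and 11.6, 14.2, 14.3 and 7.52 CPM in KO replicates 1 to 4. KO replicate 4 lay inside the WT range, and the log2 fold change of 0.58 ± 0.267 was the smallest of the surface group (adjusted p = 0.25).

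*Cd37*, a tetraspanin of leukocytes that is abundant on mature B cells, was at 4.93, 4.98 and 3.95 CPM in WT. Its level was 54.8, 8.84, 66.1 and 14.2 CPM in the KO libraries, all above WT, with a log2 fold change of 2.96 ± 0.693 (adjusted p = 0.0845). *Faim3*, also named *Fcmr*, encodes a receptor for the Fc part of IgM. It was at 0.527, 1.61 and 0.743 CPM in WT and 16.2, 1.57, 28.0 and 8.46 CPM in KO. KO replicate 2 lay just under WT replicate 2 and the other KO libraries stood above, with a log2 fold change of 3.80 ± 0.901 (adjusted p = 0.0848).

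*Fcer2a* encodes CD23, the low-affinity IgE receptor, which is a marker of follicular B cells in the mouse. It had 10, 3 and 6 counts in the WT libraries and 813, 16, 1609 and 181 in KO replicates 1, 2, 3 and 4, or 0.376, 0.0894 and 0.178 CPM in WT and 21.6, 0.368, 32.9 and 4.83 CPM in KO. KO replicate 2 was below WT replicate 1, and the other 3 KO libraries stood far above all WT libraries. The log2 fold change was 6.15 ± 1.45 (adjusted p = 0.0845), the second largest of the 35 genes. *Cr2*, which encodes the complement receptor CD21, had a log2 fold change of 5.88. *Ms4a1*, which encodes CD20, had one of 5.75, with 2 to 12 counts in the WT libraries and 8 in KO replicate 2, so that for both genes KO replicate 2 lay inside the WT range.

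Several of the surface proteins are inhibitory receptors. *Cd22* and *Siglecg*, lectins that bind sialic acid and damp receptor signalling, had log2 fold changes of 4.56 and 4.10 and no overlap between the groups. *Cd72*, another inhibitory lectin, had one of 0.97 (adjusted p = 0.231) and was called by no test, with KO replicate 2 (4.21 CPM) below all WT libraries. Of its exon bases, 41.6% are shared with *Tesk1*, and reads there were not counted. *Fcrla* and *Fcrl1*, Fc receptor-like proteins of B cells, had log2 fold changes of 4.46 and 3.93 without overlap. *Cd83*, an activation marker that dendritic cells also carry, and *Cd180* had values of 1.57 and 1.24, with KO replicate 4 inside or below the WT range in both.

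Receptors for cytokines and chemokines were 4 genes, all with an unadjusted p under 0.05, and the exact test called 1 of them, *Tnfrsf13c*. This gene encodes the receptor for the survival factor BAFF, on which mature B cells depend. Its levels were 0.301, 0.119 and 0.0594 CPM in WT and 10.1, 0.322, 14.3 and 2.24 CPM in KO. All KO libraries were above all WT libraries, KO replicate 2 by a small margin (14 counts against 8 in WT replicate 1), and the log2 fold change was 5.43 ± 1.31 (adjusted p = 0.0858). *Tnfrsf13b*, which encodes TACI, a second receptor for BAFF and for APRIL, had a log2 fold change of 1.93.

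*Cxcr5*, the receptor for the follicle chemokine CXCL13, was at 1.54, 1.04 and 1.25 CPM in WT. Its level was 10.2, 1.33, 15.0 and 3.23 CPM in the KO libraries. KO replicate 2 lay inside the WT range and the others above it, with a log2 fold change of 2.54 ± 0.760 (adjusted p = 0.12). *S1pr2*, a sphingosine phosphate receptor that keeps germinal centre B cells in place, was already at 24.6, 32.0 and 35.5 CPM in WT and at 47.4, 34.2, 39.8 and 43.5 CPM in KO. KO replicate 2 lay between WT replicates 2 and 3, and the log2 fold change of 0.42 ± 0.173 (adjusted p = 0.203) was, with that of *Ebf1*, the smallest of the 35 genes.

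Transcription factors had a median log2 fold change of 2.45 over the 8 of 9 genes that could be tested, and the exact test called *Pou2af1*, *Spib* and *Bach2*. *Spib*, an ETS family factor of B cells and plasmacytoid dendritic cells, had 2, 2 and 7 counts in the WT libraries and 1103, 12, 1516 and 184 in the KO libraries. These are 0.0752, 0.0596 and 0.208 CPM in WT and 29.3, 0.276, 31.0 and 4.91 CPM in KO. The groups did not overlap, although KO replicate 2 was only just above WT, and the log2 fold change of 7.09 ± 1.61 was the largest of the 35 genes (adjusted p = 0.0808).

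*Pou2af1* encodes the coactivator OCA-B, which binds the octamer factors on immunoglobulin promoters. It was at 1.84, 1.43 and 1.01 CPM in WT and 16.8, 2.37, 24.0 and 5.23 CPM in KO. The groups did not overlap, and the log2 fold change was 3.09 ± 0.767 (adjusted p = 0.0876). *Bcl6*, a repressor needed for germinal centres that many other cells also express, was at 13.2, 23.4 and 10.2 CPM in WT and 27.1, 19.97, 52.4 and 23.2 CPM in KO. KO replicates 2 and 4 lay inside the WT range, and the log2 fold change was 0.98 ± 0.392 (adjusted p = 0.198).

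*Bach2*, a repressor that holds B cells back from becoming plasma cells and that T cells also use, had the lowest adjusted p of the members (0.0642) at a log2 fold change of 2.03 ± 0.348. It was at 5.001, 7.72 and 3.89 CPM in WT and 32.3, 16.4, 26.8 and 15.3 CPM in KO, with the 4 KO libraries closer together than for most members and all above WT. *Pax5*, the factor that commits cells to the B lineage, had 4, 4 and 10 counts in WT and 358, 0, 515 and 96 in KO, so that KO replicate 2 was the only library in which it was not detected. Its log2 fold change was 4.87 ± 1.5 (adjusted p = 0.127). *Ikzf3*, which encodes the zinc finger factor Aiolos of mature lymphocytes, had a log2 fold change of 2.87. *Pou2f2* and *Ebf1* had values of 1.47 and 0.42, and *Ebf1*, which adipocyte precursors also express, was at 10.2 CPM in KO replicate 4, below all 3 WT libraries (11.9 to 13.5 CPM).

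*Mef2b*, a factor of germinal centre B cells, had 0 counts in all 7 libraries. All of its exon bases (100%) are shared with a second annotated gene, and featureCounts drops reads assigned to both, so its level was not measured.

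Sequence motifs bound by factors of this group were sought in the 250 bases before the gene start, on both strands, in RefSeq promoters of GRCm38.p6, a later build than the NCBIM37 of the counts. Promoters were found for 30 of the 36 genes, and not for *Blk*, *Cd79b*, *Cd83*, *Cxcr5*, *Ighm* and *Ikzf3*. The octamer ATGCAAAT, which POU2F2 binds together with the *Pou2af1* product, was in 3 of the 30 (10%), against 1.81% of 27025 genes with a promoter. These 3 stretches are shown in the direction of the gene, with the octamer or its reverse complement in capitals, because *Pou2f2* and *Pou2af1* are themselves members.
*Vpreb3* (chr10:75948245-75948272, + strand): cagtgggctgATTTGCATgctctattgt
*Blnk* (chr19:40994334-40994361, − strand): actggaagggATTTGCATgcccaataag
*Mef2b* (chr8:70152666-70152693, + strand): atccgcccctATGCAAATaacctacttc
The palindrome TCCCNNGGGA, a form of the site of EBF1, was in 1 of the 30, *Cd22*, against 0.914% of genes. It is shown because *Cd22* was among the genes with no overlap between the groups.
*Cd22* (chr7:30879058-30879087, − strand): tcctgcaagaTCCCTGGGGActcacacaga
GAGGAAGT, a form of the ETS site that SPIB can bind, was in 3 of the 30 (*Cd37*, *Cd72*, *Fcrl1*), against 2.79% of genes. A match describes the letters in this window and is no measure of binding. The genes with the octamer had log2 fold changes of 3.23 for *Vpreb3* and 0.85 for *Blnk*, and *Mef2b* has no value.

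The 2 other genes were both higher without overlap, *Vpreb3* after passing the count filter through the KO libraries alone. *Vpreb3*, which encodes a protein that binds immunoglobulin chains inside the cell, is expressed from early B cells onward. It had 2, 4 and 2 counts in WT and 39, 15, 80 and 10 in KO replicates 1 to 4, or 0.0752, 0.119 and 0.0594 CPM in WT and 1.03, 0.345, 1.64 and 0.267 CPM in KO. Its log2 fold change was 3.23 ± 0.814 (adjusted p = 0.0896), and KO replicate 4, not 2, was the lowest KO library. *Ralgps2*, an exchange factor for Ral GTPases that is abundant in B cells, was at 2.22, 1.91 and 2.08 CPM in WT and 14.6, 3.24, 20.1 and 4.21 CPM in KO. The 3 WT libraries lay within a narrow range and all KO libraries above it, with a log2 fold change of 2.35 ± 0.640 (adjusted p = 0.0993).

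The size of the difference was related to how much of each RNA the WT gland held. In the 23 genes with a log2 fold change above 2, the median WT level was 0.178 CPM per kb. In the 6 genes between 1 and 2 (*Syk*, *Btk*, *Cd83*, *Cd180*, *Tnfrsf13b*, *Pou2f2*) it was 0.572 CPM per kb, and in the 6 genes below 1 (*S1pr2*, *Ebf1*, *Ly86*, *Blnk*, *Cd72*, *Bcl6*) it was 2.04 CPM per kb. *Ighm* stood apart from this order, with a WT level of 12.9 CPM per kb and a log2 fold change of 2.29. The WT level enters both quantities, so this is a description with no test.

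**Figure D2:**
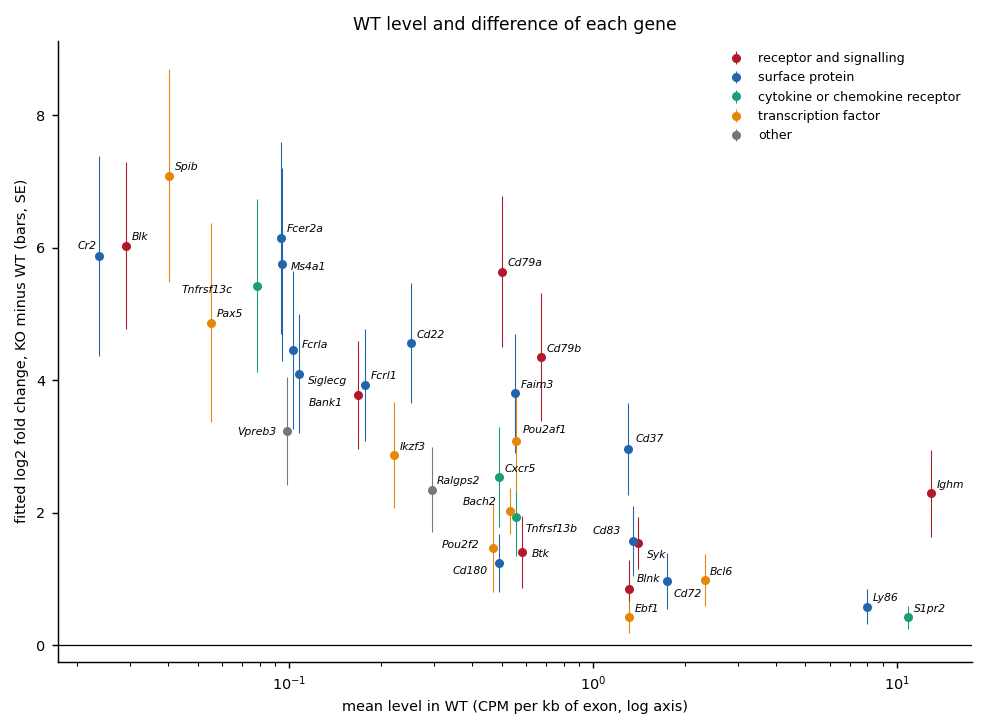
Mean WT level of each of the 35 tested genes (CPM per kb of exon, log axis) against its fitted log2 fold change, KO minus WT, with bars of 1 SE. *Spib* (0.0402 CPM per kb, log2 fold change 7.09) and *Fcer2a* (0.0942 CPM per kb, 6.15) lie at the top left, and *Ly86* (7.96 CPM per kb, 0.58) and *S1pr2* (10.9 CPM per kb, 0.42) at the bottom right.

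To ask which stage of B cell life the higher genes belong to, lists of stage markers were set side by side, with their medians given as descriptions. The mature follicular list (*Faim3*, *Fcer2a*, *Cr2*, *Cxcr5*, *Tnfrsf13c*, *Bach2*, *Fcrl1*, all members) had a median log2 fold change of 3.93. Members and lists were chosen with earlier results of these data known, and the other stage lists hold mostly non-members. This list is thus not independent of the rise in the members, and its higher median cannot decide the stage. All 7 had an unadjusted p under 0.05, 6 were called by the exact test, and all 7 were above every WT library in KO replicates 1, 3 and 4, while 3 of the 7 were so in KO replicate 2. With KO replicates 1 and 3 left out, the median was 2.37. There 6 of 7 had an unadjusted p under 0.05, against 5.41% of all genes tested. *Ighd*, the gene of the IgD heavy chain of mature B cells, was on this list and was not analysed here.

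Early B cell genes other than *Vpreb3* had at most 14 counts in any library. Among them, *Vpreb2* and *Rag2* had 0 counts in all libraries, *Rag1* had 2 counts in KO replicate 1 and 0 elsewhere, and *Igll1*, part of the surrogate light chain, had 2 counts in KO replicate 2 and 1 in KO replicate 3. *Vpreb1*, which shares near-identical sequence with *Vpreb2*, had 2, 10 and 7 counts in WT and 0, 6, 12 and 6 in KO, with a log2 fold change of −0.50 (adjusted p = 0.781). *Dntt*, the gene of the polymerase that adds bases at V(D)J junctions, had 0 counts in all WT libraries and 8, 2, 14 and 6 in the KO libraries. Of the 7 genes, *Vpreb1* and the member *Vpreb3* had enough counts for a test, the latter through the KO libraries alone. The log2 fold change of *Vpreb3* was 3.23, and the median of these 2 genes was 1.36.

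Germinal centre genes had a median log2 fold change of 0.43 over the 5 of 8 tested, and the exact test called 0, with 2 at an unadjusted p under 0.05 (the members *Bcl6* and *S1pr2*) and 0 called by DESeq2. *Rgs13*, a regulator of G protein signalling in germinal centre cells, had 0, 0 and 2 counts in WT and 0, 0, 16 and 2 in KO. Most of its counts were in KO replicate 3, with too few elsewhere for a test. *Gcet2*, *Mybl1* and *Fas* had log2 fold changes of 1.27, −0.06 and 0.43 (adjusted p = 0.302, 0.953 and 0.309).

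Of the marginal zone and B-1 list, 5 genes were tested, whose median log2 fold change was 1.09, with 3 of them at an unadjusted p under 0.05. Their highest value was that of the member *Tnfrsf13b* (1.93), and *Cd1d1* and *S1pr3*, which other cells of the gland express as well, were at 0.04 and 0.47. Plasma cell genes had a median of 0.42 over 8 genes, with 4 higher and 1 lower at an unadjusted p under 0.05. Their mean WT levels ran from 0.17 CPM for *Tnfrsf17* to 1181 CPM for *Xbp1*. As other cells also express genes of this list, its median is no measure of plasma cells alone. *Irf4* and *Sdc1*, a transcription factor and a surface proteoglycan of plasma cells that other cells also express, had log2 fold changes of 1.42 and 0.48 (adjusted p = 0.177 and 0.204). *Igj*, which encodes the chain that joins IgM and IgA subunits, was at 18.6, 25.0 and 10.1 CPM in WT and 34.3, 50.4, 72.9 and 20.6 CPM in KO replicates 1 to 4, with a log2 fold change of 1.31 ± 0.441 (adjusted p = 0.144). KO replicate 2 was the second highest library for *Igj*, whereas it was the lowest KO library for 27 of the 35 members. *Mzb1*, a chaperone of antibody-secreting cells, had a log2 fold change of 1.91 and was called as higher by DESeq2, and *Derl3*, a gene of endoplasmic reticulum degradation, had one of −2.20 and was called as lower by the exact test.

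**Figure D3:**
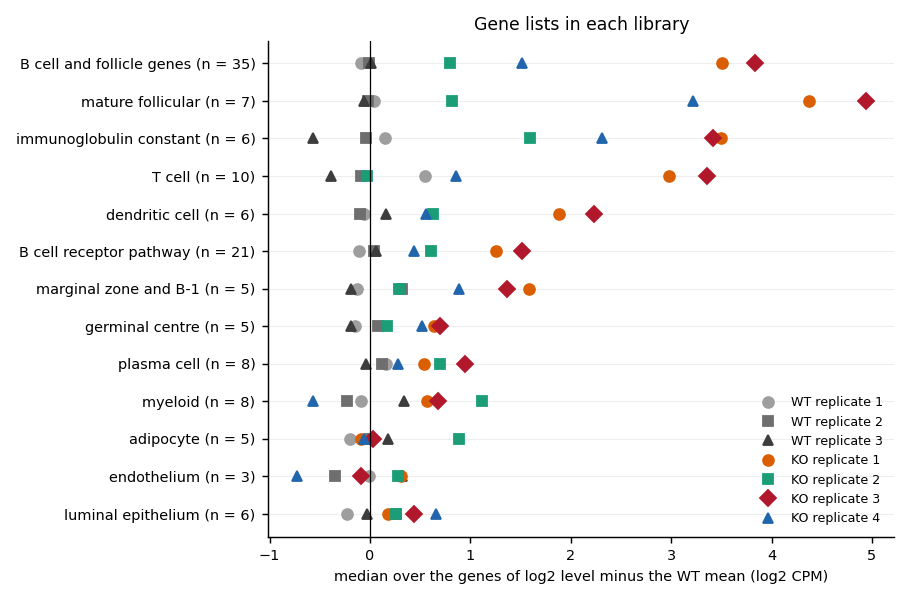
Median over the tested genes of each list of the log2 level minus the WT mean (horizontal axis, log2 CPM), for each of the 7 libraries. In KO replicates 1, 2, 3 and 4 the mature follicular list stands at 4.37, 0.82, 4.94 and 3.22 and the T cell list at 2.98, −0.03, 3.36 and 0.86. The plasma cell list, which holds genes that other cells also express, stays between 0.28 and 0.95.

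Ratios of 2 genes within a library do not depend on the scaling, and 5 were compared with a 2-sided exact permutation test over the 35 assignments of the libraries, whose smallest possible p is 0.0286. The p-values were adjusted over the 5 ratios, and none was under 0.05. *Cd79a*, a gene of all B cells, was the denominator, and 0.5 was added to each count. The ratio of *Fcer2a* to *Cd79a* was −0.74, −3.03 and −1.91 on the log2 scale in WT and −1.35, −2.37, −1.15 and −1.82 in KO. All KO libraries lay within the WT range, and the difference in means was 0.22 (exact permutation p = 0.714, adjusted p = 0.714). With 3 to 28 counts per gene in the WT libraries, the WT side of this ratio is imprecise.

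The ratio of *Bcl6* to *Cd79a* was 4.33, 4.79 and 3.81 in WT and −1.02, 3.34, −0.48 and 0.44 in KO. It was lower in all 4 KO libraries than in any WT library, a difference of −3.74 (exact permutation p = 0.0571, adjusted p = 0.143). In WT, *Bcl6* had 351, 786 and 342 counts against 17, 28 and 24 of *Cd79a*, and many other cells express *Bcl6*. A higher *Cd79a* alone lowers the ratio of a gene that other cells express, so this ratio does not place the B cells at a stage. *Igj* to *Cd79a* was 4.82, 4.88 and 3.80 in WT and −0.68, 4.68, 0.0 and 0.27 in KO, a difference of −3.44 with KO replicate 2 inside the WT range (exact permutation p = 0.0857, adjusted p = 0.143). *Vpreb3* to *Cd79a* was −2.81, −2.66 and −3.29 in WT and −5.71, −2.46, −5.47 and −5.93 in KO, a difference of −1.97 (exact permutation p = 0.143, adjusted p = 0.179). Here KO replicate 2 was above all WT libraries and the other KO libraries below them. *Vpreb3* had 2, 4 and 2 counts in WT and passed the count filter through the KO libraries alone. The WT side of its ratio is therefore imprecise, and the difference was −2.78 with 5 counts added. This ratio does not place the B cells at a stage either.

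*Cd3e*, which encodes a chain of the T cell receptor complex, was set against *Cd79a* in the same way. The log2 ratio was 1.95, 0.28 and 0.65 in WT and −2.14, 0.47, −2.16 and −3.15 in KO. KO replicate 2 lay inside the WT range and the other 3 KO libraries below it, with a difference of −2.70 (exact permutation p = 0.0857, adjusted p = 0.143).

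**Figure D4:**
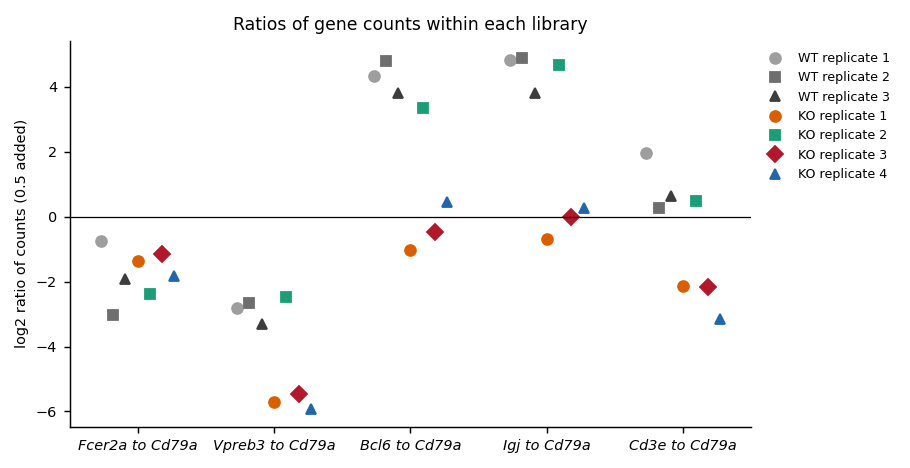
Log2 ratio of counts (0.5 added to each) of each of 5 genes to *Cd79a*, in each library. The ratio of *Fcer2a* has KO libraries inside the WT range, while those of *Bcl6*, *Igj*, *Vpreb3* and *Cd3e* are below WT in KO replicates 1, 3 and 4.

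Immunoglobulin constant genes, which B cells and plasma cells both transcribe, were 6 of those tested, with a median log2 fold change of 2.91. All 6 had an unadjusted p under 0.05, and the exact test called 4. *Igkc*, the constant region of the kappa light chain, was at 56.4, 69.2 and 35.2 CPM in WT and 206, 160.3, 313 and 84.7 CPM in KO, all above WT, with a log2 fold change of 1.83 ± 0.423 (adjusted p = 0.0825). *Iglc2* and *Iglc3*, of the lambda light chain, had log2 fold changes of 3.62 and 4.88. These genes are near-identical copies, and reads that map to both were not counted, so their values are uncertain.

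The switched heavy chains had another order of libraries. *Ighg1* was at 5.34, 1.43 and 0.743 CPM in WT and 15.5, 17.9, 16.3 and 7.87 CPM in KO, with KO replicate 2 the highest. *Ighg2c* was at 11.7, 1.94 and 2.56 CPM in WT and 98.5, 6.07, 48.0 and 54.2 CPM in KO, with KO replicate 1 the highest and KO replicate 2 inside the WT range. Their log2 fold changes were 2.54 ± 0.628 (adjusted p = 0.0872) and 3.28 ± 0.941 (adjusted p = 0.11). For *Ighm*, in contrast, KO replicate 3 was the highest and KO replicate 2 was at the WT level. The IgG constant genes resemble each other in sequence, and reads shared between them were not counted. The median of the 6 constant genes without KO replicates 1 and 3 was 2.24. All 6 had an unadjusted p under 0.05 in that setting, against 5.41% of all genes tested.

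**Figure D5:**
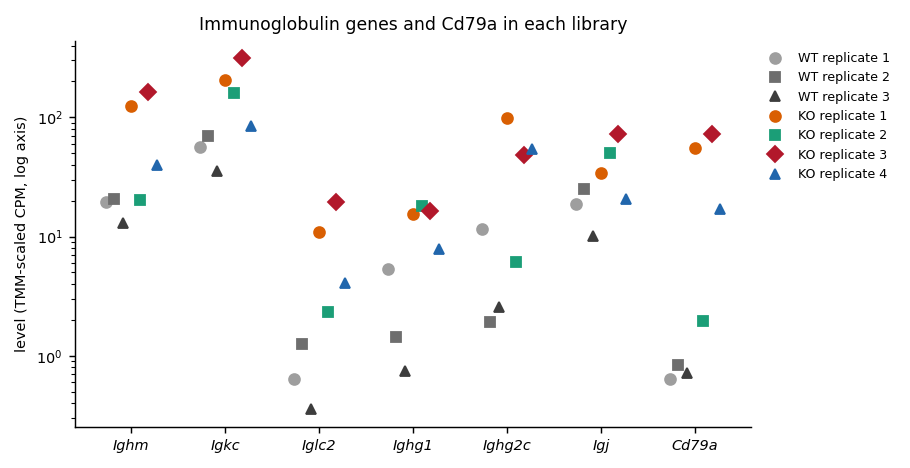
Level of 5 immunoglobulin constant genes, of *Igj* and of *Cd79a* in each library (TMM-scaled CPM, log axis). *Ighm* and *Cd79a* are highest in KO replicate 3 (162 and 73.1 CPM), while *Ighg1* is at 17.9 CPM in KO replicate 2, where *Cd79a* is at 1.96 CPM.

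Of 21 further genes of the receptor pathway, its coreceptors and ligands, 13 were higher and 1 was lower at an unadjusted p under 0.05, and the median log2 fold change was 1.07. The exact test called 4 of them as higher, among them *Irf8* and *Ciita*. *Irf8*, a transcription factor of B cells and myeloid cells, was at 12.2, 12.1 and 11.8 CPM in WT and 46.9, 22.4, 54.5 and 17.5 CPM in KO. *Ciita*, the activator of MHC class II genes, was at 5.19, 6.94 and 7.46 CPM in WT and 26.1, 12.7, 31.2 and 9.81 CPM in KO. All KO libraries were above all WT libraries for both genes, with log2 fold changes of 1.55 ± 0.386 and 1.61 ± 0.408 (adjusted p = 0.0876 and 0.0899). *Tnfsf13b*, which encodes BAFF, had a log2 fold change of 1.24, and *Tnfsf13*, which encodes APRIL, one of −0.64 (adjusted p = 0.168 and 0.141). Of the exon bases of *Tnfsf13*, 60.0% are shared with other genes. The median of the 21 genes without KO replicates 1 and 3 was 0.57. In that setting 8 were higher at an unadjusted p under 0.05, against 5.41% of all genes tested.

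T cell genes were also higher in KO replicates 1 and 3. The 10 genes (*Cd3d*, *Cd3e*, *Cd3g*, *Cd2*, *Cd5*, *Cd6*, *Cd4*, *Cd8a*, *Lck*, *Thy1*) had a median log2 fold change of 2.30, 9 had an unadjusted p under 0.05, and the exact test called *Cd4*. Their summed level was 43.9 to 76.8 CPM in WT and 232, 59.0, 266 and 62.4 CPM in KO replicates 1 to 4. In this sum KO replicates 2 and 4 lay inside the WT range, and no gene of the list was at 0 in any library. *Thy1*, which stromal cells also express, made up most of the WT sum, and the other 9 genes summed to 28.5, 18.2 and 14.4 CPM in WT and 155.0, 26.3, 196 and 36.2 CPM in KO. Without *Thy1*, KO replicate 4 was thus above all WT libraries and KO replicate 2 inside their range, and in KO replicates 2 and 4, 3 and 6 of the 10 genes were above every WT library. *Cd3e* was at 2.52, 1.01 and 1.13 CPM in WT and 12.4, 2.71, 16.3 and 1.92 CPM in KO, with a log2 fold change of 2.43 ± 0.793 (adjusted p = 0.137). Without KO replicates 1 and 3, the T cell median was 0.48, where that of the mature follicular genes was 2.37. In that setting 1 of 10 T cell genes had an unadjusted p under 0.05, against 5.41% of all genes tested. The difference between the lists was not tested.

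Among 5 markers of lymph node stroma and vessels, *Cxcl13* and *Chst4* were high in the same libraries as the members, and *Madcam1* was not. *Cxcl13*, the chemokine of follicle stroma that *Cxcr5* responds to, had 6, 0 and 4 counts in WT and 443, 6, 761 and 50 in KO, with a log2 fold change of 6.00 ± 1.65 (adjusted p = 0.1). *Chst4*, a sulfotransferase of high endothelial venules, had 0 counts in the WT libraries and 57, 0, 147 and 6 in KO replicates 1, 2, 3 and 4. Both genes were highest in KO replicate 3 and no higher in KO replicate 2 than in the highest WT library. *Ccl21a* had 0 counts in every WT library and 3, 0, 17 and 2 in KO replicates 1 to 4 (at most 0.348 CPM). *Ccl19* had 0, 0 and 2 counts in WT and 10, 2, 18 and 2 in KO (at most 0.369 CPM). Both had too few counts for a test, with the most in KO replicates 3 and 1. *Madcam1*, an adhesion molecule of vessels, had a log2 fold change of 0.10, with 24.8 CPM in KO replicate 1 and 6.08 CPM in KO replicate 3. The summed level of these 5 genes was 8.79 to 13.9 CPM in WT and 8.42 to 38.4 CPM in KO. What part of the difference in B cell genes goes with T cell, stromal or vessel RNA was not tested.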

How the data were processed

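RNA of mammary glands at lactation day 1 (3 WT and 4 *Tardbp* KO libraries) was sequenced by the authors as paired-end reads from Illumina TruSeq libraries, mapped to NCBIM37 and assigned to genes with featureCounts 1.4.6-p5. The study's methods name STAR 2.4.2a, whereas the submitters' processing notes list STAR 2.5.2a and mm9. The deposited values are raw counts per gene without normalization. Neither strand nor pairing was used, and multimapping or multi-gene reads were dropped.

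After removal of 37 mitochondrial and 580 ribosomal genes, 17175 genes passed a filter of 5 or more counts in 4 or more of the 7 libraries. The genotypes were tested against each other in R 4.3.3 by edgeR 4.0.16 (TMM, quasi-likelihood test, all libraries, Benjamini-Hochberg adjustment, limits of 0.01 and 1 as in the study's methods, which do not name the edgeR test). Levels are TMM-scaled CPM. Scripts were tested on simulated data. Tables were made with Python 3.11.15 and pandas 2.3.3, plots with matplotlib 3.10.9.

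Members and gene lists were chosen with earlier results of these data known. All 36 members are named. Values per library are given for the 3 members of each role with the highest mean CPM per kb, for genes of the ratios and for members on the early B and germinal centre lists. Other genes come from the lists, and per-library values of *Bach2*, *Blk*, *Pax5* and of genes on the lists were added after they were seen. *Ighd*, *Ighg2b*, *Ighg3*, *Igha* and *Iglc1* were not analysed here, and *Ighe* had 0 counts. Values of some genes on the lists are not reported here. Alternatives were other normalizations, filters and tests (edgeR's exact test, DESeq2 1.42.0), a replicate block, each library left out, and lane 4 only. Sampling depth limits precision most for genes with few WT counts, and intervals for single counts are not given.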

Additional observations from a re-analysis of the deposited data

Results flagged for a closer look

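Within the 4 KO libraries, 41 sets of values (35 genes, the median of the members and 5 ratios) were checked for 1 library that stands apart from the rest, by the gap to its nearest neighbour over the whole range, against Dixon's critical value at 95% for 4 values. Chance alone marks about 1 in 20 such sets, and 2 were marked. *Ebf1* was at 19.98, 19.0 and 19.6 CPM in KO replicates 1, 2 and 3 and at 10.2 CPM in KO replicate 4, a gap of 0.923 of the range of log2 CPM. The log2 ratio of *Vpreb3* to *Cd79a* was −2.46 in KO replicate 2 and between −5.93 and −5.47 in the other KO libraries, a gap of 0.867 of the range. In KO replicate 2 this ratio rests on 15 counts of *Vpreb3* and 85 of *Cd79a*.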

How the results depend on the processing

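Over all genes, 0 were called by the quasi-likelihood test at the limits used. The study, whose methods give the same limits, reports differentially expressed genes, so these 0 calls are not its result. 1 was called at an adjusted p under 0.05 and 1 with no filter on counts, 426 by edgeR's exact test and 568 by DESeq2's Wald test. Of the members, 0 were called under the quasi-likelihood test by any normalization, filter or left-out library, 19 by the exact test and 23 by DESeq2. The members' median log2 fold change of 2.96 was 2.49 to 3.28 with each library left out, 3.38 with library size alone, which moves the median of all genes from 0.05 to 0.42, and 2.18 with at least 10 counts in every library, a filter that leaves 26 members, all 26 above 0. Leaving out KO replicates 1 and 3 together, and recounting the exact test, the overlap and the unadjusted p without single libraries, were chosen after seeing the data. Without KO replicates 1 and 3 the median was 1.16, and *Pou2f2* turned to −0.14, with an adjusted p of 0.911 by the quasi-likelihood test of edgeR. In that setting 19 members had an unadjusted p under 0.05, against 5.41% of all genes tested. The exact test called 4 members there, against 0.135%. With each library left out, the exact test called 1 to 26 members, lowest without WT replicate 1, and 16 to 27 members had no overlap between groups, highest without KO replicate 2, where the share over all genes was 11.8% (10.1% to 19.5% over these settings). Of 618 other fold changes of the members under 18 settings, 1 turned in direction, and 42 were called, all by the exact test or DESeq2.

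The log2 ratio of *Fcer2a* to *Cd79a* (0.22) was −0.26 with 5 counts added (adjusted p = 0.629), 1.54 in lane 4 only and −0.35 to 0.80 with each library left out. With each library left out, the differences were −2.78 to −1.63 for *Vpreb3*, −4.66 to −3.21 for *Bcl6*, −4.64 to −2.86 for *Igj* and −3.44 to −2.21 for *Cd3e*. In that order they were −3.04, −4.81, −4.75 and −2.93 in lane 4 only, and −1.28, −2.42, −2.03 and −2.30 without KO replicates 1 and 3. The causes were not tested. The planned ratio of *Ighd* to *Ighm* was not run, so that p-values were adjusted over 5 ratios.

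Deviations of same-numbered libraries from their group means correlated at 0.351, 0.0941 and −0.058. By these deviations WT replicates 1 and 2 were most like the KO libraries of the same number, and WT replicate 3 was most like KO replicate 2. Whether the numbers pair the libraries is thus not settled, and the main test used no pairing. With a replicate block the members' median was 2.85, and 0 members and 0 genes in all were called. Low counts in WT limit the fold changes of *Blk*, *Cr2*, *Spib*, *Pax5*, *Tnfrsf13c*, *Fcer2a*, *Ms4a1*, *Fcrla* and *Vpreb3* most.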

Other observations

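Genes of other cell types of the gland were set beside the B cell genes, with no test of the difference. Dendritic cell genes (6) had a median log2 fold change of 1.64, with 4 at an unadjusted p under 0.05 and 0 called by edgeR's exact test, and 1 called by DESeq2. *Siglech*, a marker of plasmacytoid dendritic cells, and *Flt3*, a receptor of dendritic cell precursors, had the higher values among them, 2.69 and 2.33 (adjusted p = 0.102 and 0.132, edgeR's quasi-likelihood test), whereas *Itgax* and *Zbtb46* were at 0.29 and 0.09. *Siglech* was at 0.338, 0.655 and 0.595 CPM in WT and 4.62, 1.10, 6.96 and 1.12 CPM in KO replicates 1, 2, 3 and 4, with KO replicates 1 and 3 the highest. Leaving out KO replicates 1 and 3, the dendritic cell median was 0.62.

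Myeloid genes (8) had a median of 0.57, and in KO replicates 1, 2, 3 and 4 it stood at 0.57, 1.12, 0.68 and −0.57 from the WT mean on the log2 scale, so that KO replicate 2 was the highest and KO replicate 4 the lowest. Adipocyte genes (5) had a median of 0.31, endothelial genes (3) −0.03, skeletal muscle genes (2 of 3 tested) 0.09 and luminal epithelium genes (6) 0.40. In these 5 lists, 0 genes were called by the quasi-likelihood test, the exact test or DESeq2, and at an unadjusted p under 0.05 by the quasi-likelihood test, 2 luminal genes were higher and *Elf5* and the myeloid gene *S100a8* were lower (log2 fold changes of −0.59 and −1.03).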
